A study of Mus musculus with 4 samples.

Results

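The ADAM genes encode membrane-anchored proteins with a metalloprotease domain and a disintegrin domain, and the gene symbol (Adam, a number and at most a letter) picked 31 of them out of the 25265 genes of the deposited testis table. All 31 passed the filter on low counts and were among the 21132 genes tested. They were read in 4 RNA-seq libraries of whole testis from C57BL/6 mice at postnatal day 56, of which 2 carried the genotype label control and 2 the label Ythdf2-vKO. The series title describes the mutation as specific to germ cells. The driver of the deletion, the deleted segment, the genotype of the controls beyond their label and the number of animals per library are not given in the sources used here. Ythdf2 encodes a reader of N6-methyladenosine, a methyl mark on RNA.

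An ADAM protein is made with a prodomain, which furin-type proteases remove, and the mature protein sits in the membrane with its metalloprotease, disintegrin and cysteine-rich domains outside the cell. The broadly expressed members are sheddases: they cut the outer part off membrane proteins such as Notch receptors, cytokines and cadherins. Many other members are made mainly by male germ cells, reach the sperm surface, and act there in passage through the uterotubal junction and in binding to the egg coat, often without any protease activity.

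The 31 genes were sorted by known role. The sperm-surface group had 11 members: Adam1a, Adam1b, Adam2, Adam3, Adam4, Adam5, Adam6a, Adam6b, Adam18, Adam24 and Adam32. A further 9 known for testis expression (Adam20, Adam21, Adam25, Adam26a, Adam26b, Adam29, Adam30, Adam34, Adam39) formed a second group. The broadly expressed group had 8 (Adam8, Adam9, Adam10, Adam12, Adam15, Adam17, Adam19, Adam33), and Adam11, Adam22 and Adam23, known from the nervous system, formed a group of 3. Adam7, a gene of the epididymis whose protein is passed to sperm, and Adam28 had no row under these symbols in the deposited table. The lowest total of any gene in that table was 10 counts over the 4 libraries.

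These groups differ in their coding sequence. The protease site of an active ADAM is built on 3 histidines that hold a zinc ion and a glutamate that carries out catalysis. The codons of this site were found in the GENCODE M21 coding sequences of 8 of 8 broadly expressed genes, 8 of 9 other testis genes, 3 of 11 sperm-surface genes and 0 of 3 nervous system genes. The sequences below, from GENCODE M21 on GRCm38, are shown because the 5 sperm-surface genes with the highest level per length lack the site, as do 3 others of that group. Each runs over 33 coding bases on the gene's own strand, and capitals mark the 4 codons that stand, in an active member, for the first histidine, the glutamate and the other two histidines. In Adam10 the stretch crosses an intron, so its coordinates span more than the bases printed.
Adam9, chr8:24990326-24990358, minus strand: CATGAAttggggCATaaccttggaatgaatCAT
Adam10, chr9:70754296-70761585, plus strand: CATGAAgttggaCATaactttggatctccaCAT
Adam17, chr12:21336732-21336764, minus strand: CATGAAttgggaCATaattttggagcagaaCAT
Adam1a, chr5:121520089-121520121, minus strand: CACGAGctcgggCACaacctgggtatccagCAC
Adam21, chr12:81559922-81559954, minus strand: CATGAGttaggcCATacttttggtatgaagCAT
Adam29, chr8:55872374-55872406, minus strand: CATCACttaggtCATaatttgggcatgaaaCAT
Adam4, chr12:81420763-81420795, minus strand: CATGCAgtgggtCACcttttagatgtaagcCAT
Adam2, chr14:66053841-66053873, minus strand: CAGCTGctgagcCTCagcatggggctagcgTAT
Adam3, chr8:24707418-24707450, minus strand: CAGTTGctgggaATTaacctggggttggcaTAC
Adam5, chr8:24806449-24806481, minus strand: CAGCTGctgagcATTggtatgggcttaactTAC
Adam18, chr8:24647848-24647880, minus strand: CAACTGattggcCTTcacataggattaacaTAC
Adam32, chr8:24901501-24901533, minus strand: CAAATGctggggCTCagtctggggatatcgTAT
Adam29 and Adam4 keep all 3 histidine codons and lack the glutamate codon. Adam2, Adam3, Adam5, Adam18 and Adam32 keep 0 of the 4 codons. These 5 also differ from the rest of the testis members in gene structure, with 19 to 22 coding exons, whereas the other 6 sperm-surface genes and all 9 other testis genes are coded in 1 exon each.

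Control libraries held 24862518 and 29561182 counts, and those labelled Ythdf2-vKO 26298245 and 26265700. Ythdf2 itself was not lower in the latter, at 51.0 and 53.5 CPM (CPM are counts relative to library size, scaled by TMM) in control against 66.3 and 67.0, at an edgeR adjusted p of 0.238. Directions below are therefore those of the libraries labelled Ythdf2-vKO relative to those labelled control. Wherever 2 pairs of values are joined by against, the control libraries come first. The labels do not say that the libraries of a group came from separate animals, so p-values measure the spread between libraries, which may be technical. The testis label fits the markers, since elongating spermatid genes summed to between 12746 and 16325 CPM per library, while the 2 of 8 epididymis genes in the table, Crisp1 and Defb20, summed to 0.0856 to 0.4 CPM. Libraries also differed in GC content, as a description. The Spearman correlation across genes of a library's deviation with transcript GC was 0.0238 and -0.4 against 0.254 and 0.189. Both libraries labelled Ythdf2-vKO thus lay above both controls, so GC content went with the label. Control 2 (-0.4) stood far below control 1 (0.0238), so the size of this difference rested mainly on control 2.

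ADAM genes took 0.407% to 0.524% of all counts in a library, and nearly all of that was from the sperm-surface group. Sperm-surface genes held 85.9% to 88.7% of the ADAM counts, other testis genes 8.54% to 9.85%, broadly expressed genes 2.03% to 3.26% and nervous system genes 0.637% to 0.964%. Adam5 and Adam3 ranked 36 and 44 among all 25265 genes by mean CPM. Levels of different genes were compared per kb of merged exons. On that scale Adam3 and Adam5 both averaged 370 CPM per kb (370.5 and 369.8) and their libraries overlapped, so the order of these 2 does not differ beyond their spread. Adam32 (228), Adam2 (147) and Adam18 (57.7 CPM per kb) followed, and the ranges over libraries of these 3 did not overlap each other.

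**Figure D1:**
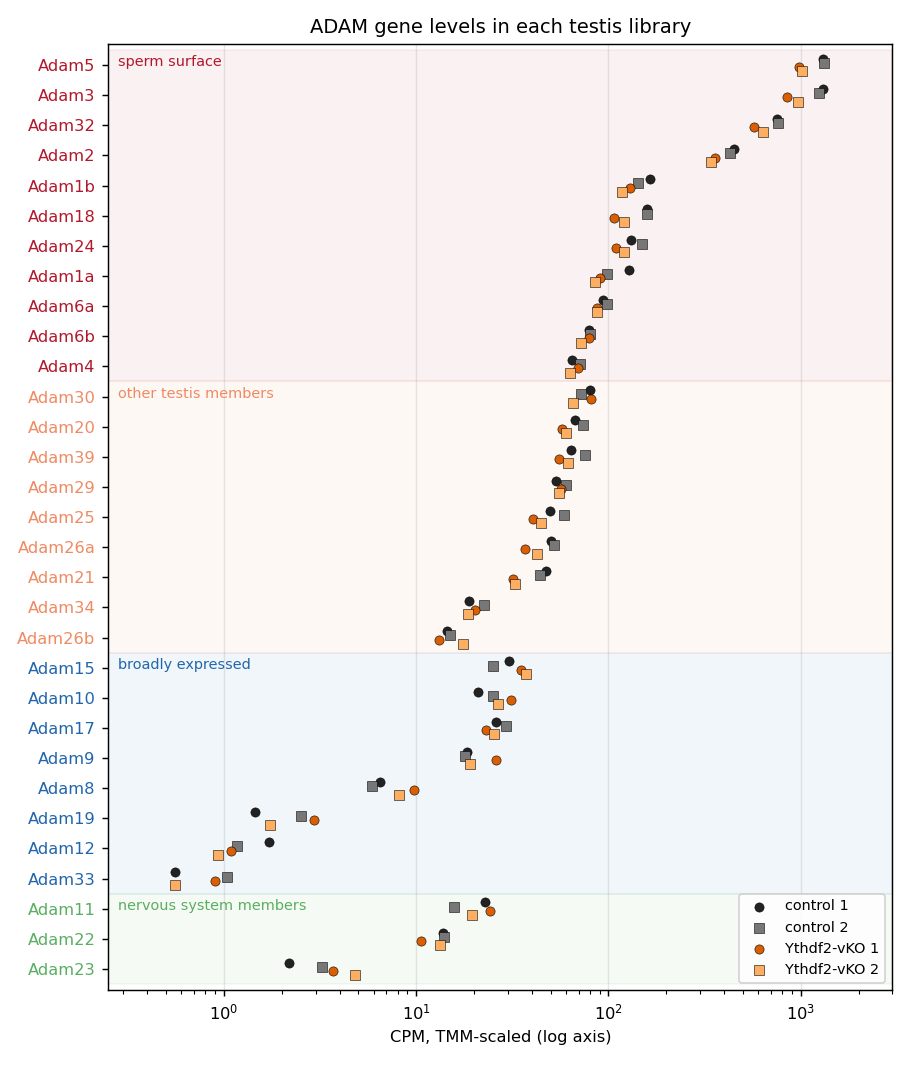
TMM-scaled CPM (log axis) of each ADAM gene in the 2 control libraries (black and grey) and the 2 libraries labelled Ythdf2-vKO (orange and light orange), grouped by role and ordered by mean level. Sperm-surface genes lie between 63.2 and 1329 CPM and broadly expressed genes between 0.556 and 37.4 CPM.

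The median level per length was 44.1 CPM per kb in the sperm-surface group, 18.5 in the other testis group, 2.63 in the broadly expressed group and 0.901 in the nervous system group. The highest broadly expressed gene, Adam10 (5.29 CPM per kb), lay just below the lowest other testis gene, Adam26b (6.05), and their libraries overlapped. This order turns with the length used: per kb of the longest transcript, Adam15 was the highest broadly expressed gene at 8.18 CPM per kb, above Adam34 (7.76) and Adam26b (6.05). Adam1a stood at 13.3 CPM per kb, but its gene model makes this a poor estimate. Its merged exons in M21 hold 7508 bp, of which 4779 bp are shared with Gm42878 and 1805 bp with Mapkapk5 on the same strand and 848 bp with Tmem116 on the other. Gm42878 had no row in the deposited table, Mapkapk5 had 23 to 29 counts per library and Tmem116 had 553 to 728. The coding part of Adam1a is 2373 bp, and the counting mode and its use of strand are not given in the sources used here.

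To ask how the family differed with the genotype label, each gene was read from a fit over all genes. By the quasi-likelihood test of edgeR (Benjamini-Hochberg adjustment over all genes), no member passed an adjusted p of 0.05, against 0.393% of all genes tested. At an unadjusted p under 0.05 there were 11 lower and 3 higher members of 31 in the libraries labelled Ythdf2-vKO, against 6.47% and 7.65% of all genes tested. A DESeq2 Wald test of the same counts called 1 member, Adam3, against 1.32% of the genes it gave an adjusted p. In 17 members both libraries labelled Ythdf2-vKO lay below both controls, against 22.6% of all genes tested, and in 5 both lay above, against 22.7%. Together these are 22 of 31 members whose groups did not overlap, against 45.3% of all genes tested. Calls moved with single libraries: edgeR called 7 lower members and 1 higher without control 1, when 6.82% of all genes were called, and 7 lower without control 2, when 4.93% were. It called none without Ythdf2-vKO 1 (0.16% of all genes) or Ythdf2-vKO 2 (0.446%). With the replicate number as a block, 3 members were called lower (4.81% of all genes), and 2 when an offset for GC content was added to the block (2.46%).

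All 11 sperm-surface genes and 8 of 9 other testis genes had log2 fold changes below 0, as did 49.7% of all genes tested. Of the broadly expressed genes 5 of 8 lay above 0, and of the nervous system genes 2 of 3, against 50.3% of all genes tested. The median log2 fold change was -0.32 for sperm-surface genes, -0.26 for other testis genes, 0.27 for broadly expressed genes and 0.19 for nervous system genes, against 0.0027 for all genes tested. These medians describe lists chosen by symbol and role and carry no test. The broadly expressed median was -0.03 without Ythdf2-vKO 1 and 0.04 without control 1, and the nervous system median was -0.06 without control 2.

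**Figure D2:**
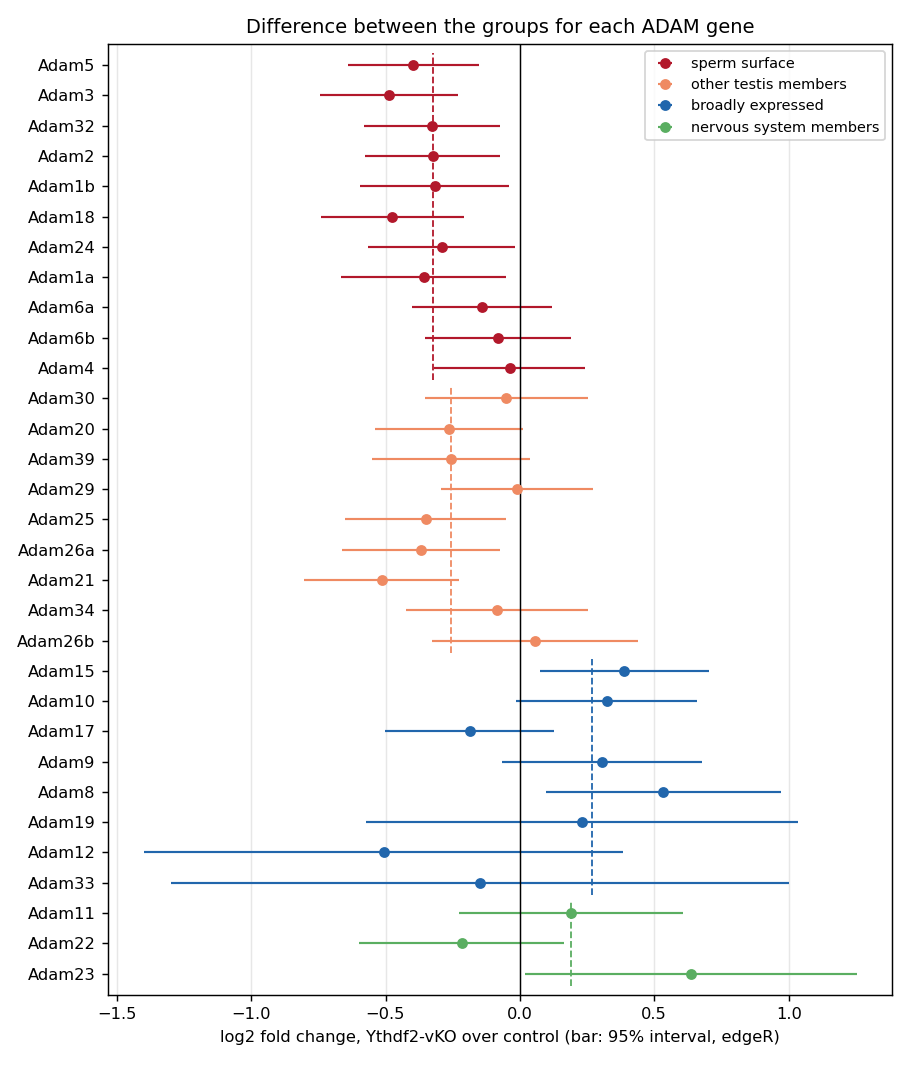
Log2 fold change of each ADAM gene in the libraries labelled Ythdf2-vKO relative to control, with its 95% interval from the edgeR fit (n = 2 libraries per group) and the median of each role group as a dashed line. The sperm-surface median lies at -0.32 and the broadly expressed median at 0.27, and no single gene passed an adjusted p of 0.05.

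Among the sperm-surface genes, Adam3 (cyritestin), which mice need for sperm to pass the uterotubal junction, measured 1299.9 and 1245 against 852 and 963 CPM. Both controls lay above both other libraries. The means were 1272 ± 39.0 and 908 ± 78.1 CPM (SD, n = 2 each), or 1.40-fold lower, a log2 fold change of -0.49 (SE 0.12, 95% interval -0.74 to -0.23, adjusted p 0.105 in edgeR). The authors' deposited table lists -0.49 (SE 0.14) and an adjusted p of 0.0336 for Adam3. Across 13 alternatives to this fit Adam3 stayed at -0.58 to -0.40, while the adjusted p spanned 0.000112 (without control 2) to 0.801 (without Ythdf2-vKO 1). The Adam3 gene spans 24677225 to 24725852 of chromosome 8 in GRCm38, minus strand, and Gm45528 on the other strand shares 199 bp of its exons.

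Adam5, a gene next to Adam3 whose protein is also carried by sperm, measured 1303 and 1329 against 979 and 1019.7 CPM. The groups did not overlap, and the controls differed from each other by less than the groups did. The log2 fold change of Adam5 was -0.40 (SE 0.11, 95% interval -0.64 to -0.15, adjusted p 0.152 in edgeR). Adam5 spans 24727093 to 24824369 on the same strand of chromosome 8. Adam18 had 158.5 and 158.3 CPM against 107 and 121 CPM (log2 fold change -0.47, SE 0.12, adjusted p 0.123 in edgeR). Its control libraries were nearly equal, and the spread between the other pair was the larger. Adam32 had 757 and 759 CPM against 572 and 636 CPM (log2 fold change -0.33, SE 0.12, adjusted p 0.234 in edgeR), and its groups did not overlap.

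Adam2 and Adam1b encode the beta and alpha subunits of fertilin, the heterodimer on the sperm surface, and Adam1a encodes the alpha subunit that pairs with ADAM2 in the endoplasmic reticulum and is needed for ADAM3 to reach the surface. Adam2, on chromosome 14 from 66027329 to 66077733, had 451 and 428 against 359 and 343 CPM (log2 fold change -0.32, SE 0.12, adjusted p 0.235 in edgeR). Adam1b had 165 and 142 against 129 and 118 CPM (log2 fold change -0.32, adjusted p 0.285 in edgeR). Adam1a had 127 and 97.8 against 90.1 and 85.4 CPM (log2 fold change -0.36, adjusted p 0.281 in edgeR). In all 3 both controls lay above both other libraries. Control 1 stood apart for Adam1a, and without it the log2 fold change was -0.16, while without control 2 it was -0.53. Adam1a and Adam1b share 1205 nt at 99.7% identity, so their counts could not be fully told apart. They lie 15140 bp from each other on chromosome 5.

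The remaining sperm-surface genes were closer to no difference. Adam24 (testase 1), the one member of the group besides Adam1a and Adam1b with the zinc site, had 131 and 149 against 109 and 119.8 CPM. The groups did not overlap, and its log2 fold change was -0.29 (unadjusted p 0.0382, adjusted p 0.321 in edgeR). Adam6a, Adam6b and Adam4 had log2 fold changes of -0.14, -0.08 and -0.04, with 95% intervals of -0.40 to 0.12, -0.35 to 0.19 and -0.32 to 0.24. Adam6a and Adam6b are 93.9% identical over 2510 nt, and Adam4 is 91.7% identical to the pseudogene Gm5746 over 2223 nt. For Adam4 the direction was above 0 with library totals alone (0.02) and with a correction for GC content (0.03).

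Split by gene structure after the values had been seen, the 5 sperm-surface genes with several coding exons had log2 fold changes of -0.49 to -0.32 (median -0.40), all 5 with both libraries labelled Ythdf2-vKO below both controls (22.6% of all genes tested). The 6 coded in 1 exon had -0.36 to -0.04 (median -0.22), and 4 of these 6 lay apart in the same way. The 9 other testis genes, also coded in 1 exon, had -0.51 to 0.06 (median -0.26), and 5 of these 9 lay apart likewise. Low values were thus not confined to genes with several coding exons, and the part of gene structure was not tested. The 5 genes with several coding exons are also the 5 highest in level per length. Adam4, Adam6a and Adam6b, which also lack the zinc site but are coded in 1 exon, had the 3 log2 fold changes nearest to 0 in the sperm-surface group (-0.04, -0.14 and -0.08).

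In the other testis group, Adam21 had the lowest log2 fold change of the family (-0.514). Adam12 (-0.507, SE 0.41) and Adam3 (-0.487) were so close that this order does not differ beyond the errors. Adam21 had 47.6 and 44.3 against 31.7 and 32.6 CPM, with both controls above. The difference was 1.43-fold, on the log2 scale -0.51 (SE 0.13, 95% interval -0.80 to -0.23, adjusted p 0.123 in edgeR). Adam4 lies 136637 bp from Adam21 on chromosome 12 and had a log2 fold change of -0.04. Adam26a (testase 3) had 50.5 and 51.9 against 36.9 and 42.5 CPM (log2 fold change -0.37, adjusted p 0.245 in edgeR). Adam25 (testase 2) had 49.8 and 58.7 against 40.7 and 44.4 CPM (log2 fold change -0.35, adjusted p 0.277 in edgeR), and without control 2 its log2 fold change was -0.23.

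The most abundant genes of this group differed less. Adam30 had 79.96 and 71.98 against 81.2 and 65.5 CPM, so the groups overlapped. Adam20 had 67.3 and 73.9 against 57.6 and 59.97 CPM, and Adam39 had 64.1 and 75.1 against 55.1 and 61.4 CPM. Neither overlapped, at unadjusted p values of 0.0589 and 0.0808 in edgeR's quasi-likelihood test. Adam29, Adam34 and Adam26b had log2 fold changes of -0.01, -0.08 and 0.06 with overlapping groups. Adam26b is 96.2% identical to Adam26a over 2268 nt, yet their log2 fold changes were 0.06 and -0.37. Adam25, Adam39 and Adam20 are 92.2% to 95.6% identical to each other over at least 2214 nt. Adam34 is 93.8% and 94.5% identical to Gm5346 and Gm5347. How the counting treated reads that match several of these genes is not given in the sources used here, so single values in these families are uncertain.

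Of the broadly expressed sheddases, Adam10, the main protease that starts Notch receptor cleavage, had 20.9 and 25.2 against 31.2 and 26.6 CPM. The groups did not overlap (log2 fold change 0.32, SE 0.16, 95% interval -0.01 to 0.66, adjusted p 0.376 in edgeR). Adam10 lies on chromosome 9 from 70678997 to 70780229. Without control 1 it was 0.19 and without Ythdf2-vKO 1 it was 0.20. Adam17, which releases tumour necrosis factor and ligands of the EGF receptor, went the other way, with 25.9 and 29.3 against 23.1 and 25.5 CPM. Its groups did not overlap, and its log2 fold change was -0.19 (95% interval -0.50 to 0.13, adjusted p 0.624 in edgeR), between -0.28 and -0.09 over the alternatives. Iah1 on the opposite strand shares 311 bp of Adam17 exons.

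Adam9 had 18.5 and 18.0 against 26.1 and 19.0 CPM. The difference came from Ythdf2-vKO 1: the log2 fold change of 0.31 (adjusted p 0.463 in edgeR) became 0.06 without it. Adam15 had 30.4 and 25.1 against 35.2 and 37.4 CPM (log2 fold change 0.39, unadjusted p 0.0195, adjusted p 0.253 in edgeR), and Adam8, known from leukocytes, had 6.46 and 5.90 against 9.75 and 8.12 CPM (log2 fold change 0.53, unadjusted p 0.0207, adjusted p 0.258 in edgeR). With the correction for GC content the log2 fold change of Adam15 was 0.20. The antisense gene 4731419I09Rik shares 1263 bp with Adam15 exons. Adam19, Adam12 and Adam33 stayed under 3 CPM in every library, and their 95% intervals were wide, with the largest SE (0.53) for Adam33.

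The nervous system members lack the zinc site, and ADAM22 and ADAM23 are known as receptors for secreted LGI proteins at synapses. Adam23 had 2.18 and 3.24 against 3.70 and 4.78 CPM, from 51 to 129 counts (log2 fold change 0.64, SE 0.29, unadjusted p 0.0446, adjusted p 0.338 in edgeR). The groups did not overlap, and without control 1 the log2 fold change was 0.38. Adam11 had 22.8 and 15.7 against 24.2 and 19.5 CPM, with overlapping groups and a log2 fold change of 0.19 that was -0.02 with the correction for GC content, its transcript being 60.1% GC. Adam22 had 13.78 and 14.01 against 10.6 and 13.3 CPM, with a log2 fold change of -0.22 that was -0.06 without Ythdf2-vKO 1 and -0.40 without Ythdf2-vKO 2.

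The sperm-surface and broadly expressed groups were then set against each other inside each library, where the scaling between libraries cancels. Summed CPM of the sperm-surface group was 43.7 and 42.1 times that of the broadly expressed group in control, and 26.4 and 30.3 times in the libraries labelled Ythdf2-vKO. Both controls lay above both other libraries. The sperm-surface sum is weighted to its most abundant genes, Adam5, Adam3 and Adam32, with means of 1158, 1090 and 681 CPM. For Adam3 against Adam10 the ratio was 62.3 and 49.4 in control and 27.3 and 36.2 in the others. Adam10 had a log2 fold change of 0.32 and Adam17 of -0.19, so such a ratio depends on the broadly expressed gene taken. These ratios differed between the labels without telling which group of genes changed. The smallest two-sided p of an exact permutation test with 2 libraries per group is 0.333. Effects of GC content on a library do not cancel in a ratio of groups with unlike transcript GC. The median GC was 44.0% for sperm-surface and 51.5% for broadly expressed genes, and the part of GC in the ratios was not tested.

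The 2 roles meet on chromosome 8, which carries 13 of the 31 genes. Adam18, Adam3, Adam5, Adam32 and Adam9 follow each other on the minus strand between 24602246 and 25016927 in GRCm38. The gaps between them are 2469, 1240, 11770 and 806 bp. Their log2 fold changes in that order were -0.47, -0.49, -0.40, -0.33 and 0.31. Adam9, the sheddase, thus lies 806 bp from Adam32 and was the only one of the 5 above 0, a value that rested on Ythdf2-vKO 1 as given above.

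The partners of the family were read from lists written with earlier results of these data known. Of 16 genes for chaperones and other factors that sperm ADAM proteins need to mature, 0 passed an adjusted p of 0.05 in edgeR, 14 had log2 fold changes below 0 (49.7% of all genes tested) and 2 of them an unadjusted p under 0.05 (6.47% of all genes tested were lower at that p), with a median of -0.16. Those 2 were Calr3, a testis calreticulin that ADAM3 needs (170 ± 6.76 against 139 ± 3.98 CPM, log2 fold change -0.28, adjusted p 0.302 in edgeR), and Rnase10 (7.85 ± 0.394 against 5.64 ± 0.416 CPM, log2 fold change -0.48, adjusted p 0.314 in edgeR). Of 16 regulators of sheddases, 12 lay above 0 (50.3% of all genes tested) and 4 of these had an unadjusted p under 0.05 (7.65% of all genes tested were higher at that p; median 0.20, 0 with an adjusted p under 0.05 in edgeR).

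The list of regulators pools inhibitors of metalloproteases with other factors. Timp2 and Timp1, which are such inhibitors, had the smallest p-values among the regulators and lay above 0. Timp3 and Timp4 lay below 0, with log2 fold changes of -0.36 and -0.05 (adjusted p 0.460 and 0.971 in edgeR). Timp2 had 115 and 111 against 175 and 160.2 CPM (log2 fold change 0.57, adjusted p 0.0692 in edgeR). Timp1 had 2 and 31 counts in control against 84 and 99 (log2 fold change 2.51, SE 0.64, adjusted p 0.149 in edgeR), so its size rests on a control library with 2 counts. Of 20 substrates of sheddases 15 were tested, of which 11 lay above 0 (50.3% of all genes tested), 3 of these with an unadjusted p under 0.05 (7.65% higher at that p among all genes; median 0.14, 0 with an adjusted p under 0.05 in edgeR). Notch1, a receptor cut by ADAM10, had 83 and 99 against 228 and 155 counts (log2 fold change 1.06, adjusted p 0.0994 in edgeR). Tnfrsf1a, a receptor shed by ADAM17, had a log2 fold change of 0.43 (adjusted p 0.232 in edgeR).

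Markers of cell types found in testis were placed beside the ADAM genes. Spermatocyte genes had a median log2 fold change of -0.23 (1 of 10 above 0), elongating spermatid genes -0.23 (1 of 10) and round spermatid genes -0.02 (4 of 9). Spermatogonia genes had 0.22 (9 of 9 above 0), Sertoli genes 0.46 (10 of 10) and Leydig genes 0.38 (7 of 8). Endothelial genes had 0.40 (5 of 6), erythrocyte genes 0.76 (4 of 4), macrophage genes 0.08 (7 of 8) and peritubular myoid genes -0.05 (2 of 6). Of all genes tested, 50.3% lay above 0. Among the Sertoli genes 1, Wt1, had an adjusted p under 0.05 in edgeR, against 0.393% of all genes tested. Summed levels were 992 and 1032 CPM in control against 1428 and 1252 for Sertoli genes, 16325 and 13351 against 12746 and 13098 for elongating spermatid genes, and 2320 and 2480 against 2161 and 2137 for spermatocyte genes. Ythdf2-vKO 1 stood highest for the broadly expressed ADAM genes, whose median deviations from the 4-library mean of log2(CPM + 0.5) were -0.15 and -0.03 against 0.22 and -0.05. It also stood highest for spermatogonia genes (-0.14 and -0.11 against 0.26 and -0.06) and Leydig genes (-0.27 and -0.10 against 0.36 and 0.0019). Sheddase substrates did the same (-0.12 and -0.04 against 0.16 and -0.04). So did Sertoli, endothelial and erythrocyte genes (0.28, 0.27 and 0.46 in Ythdf2-vKO 1, and 0.18, 0.17 and 0.15 in Ythdf2-vKO 2). Sheddase regulators were nearly equal in Ythdf2-vKO 1 and Ythdf2-vKO 2 (0.093 and 0.092). Nervous system ADAM genes stood at 0.12 in Ythdf2-vKO 1 and close to it in control 1 (0.097). Macrophage and peritubular myoid genes stood highest in control 2 (0.25 and 0.32). In whole-testis RNA, fewer cells of a type and less RNA per cell cannot be told apart. The part of these cell type markers in the ADAM values was not tested.

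**Figure D3:**
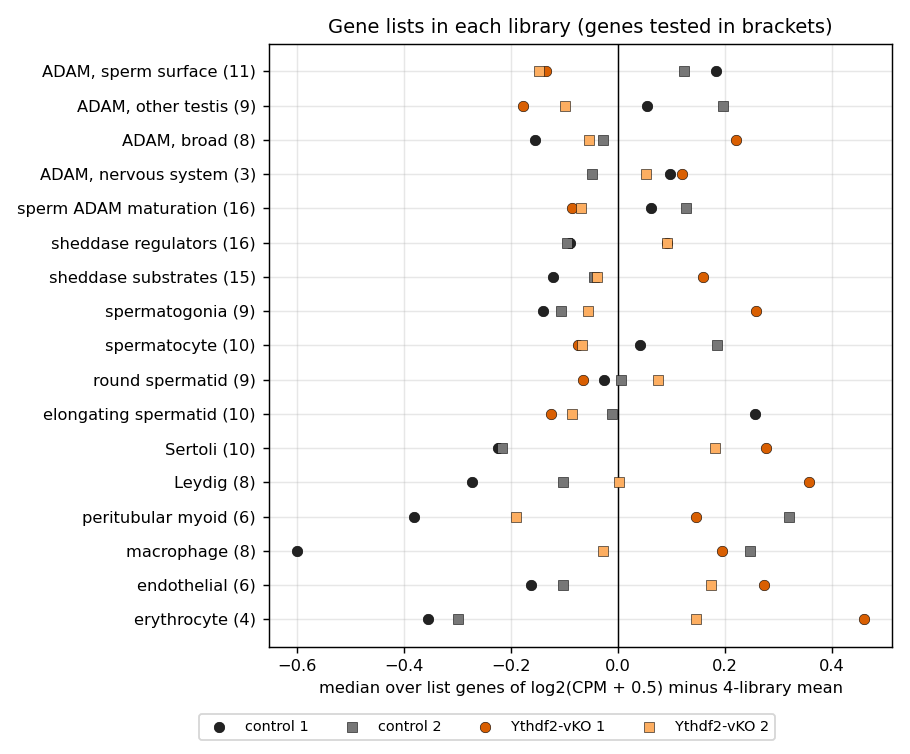
Median over the genes of each list of log2(CPM + 0.5) minus the 4-library mean of the gene, in each of the 2 control libraries and the 2 libraries labelled Ythdf2-vKO. Sperm-surface ADAM genes lie at 0.18 and 0.12 in control and -0.13 and -0.15 in the others, and Sertoli genes at -0.22 and -0.22 against 0.28 and 0.18.

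GC content also went with role. The median transcript GC was 44.0% in the sperm-surface group, 42.0% in the other testis group, 51.5% in the broadly expressed group and 47.2% in the nervous system group, against 48.9% for all genes tested. With an offset for GC content the 4 medians of log2 fold change were -0.28, -0.18, 0.17 and -0.02, so the nervous system median changed sign and the other 3 kept theirs. Matches to GGACT, a common core of the motif at which N6-methyladenosine is placed, were counted on the transcript strand of the longest M21 transcript, since the mark is on RNA. Members had a median of 1.07 matches per kb and genes tested 1.02, and 30 of 31 members held at least 1, against 85.9% of genes tested. That share depends on transcript length, which was not matched, and the longest transcript of every member has at least 2361 bp (Adam18). Adam21, with the lowest log2 fold change of the family, held 0, while Adam12 and Adam3, close to it in log2 fold change, held 8 and 2.

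**Figure D4:**
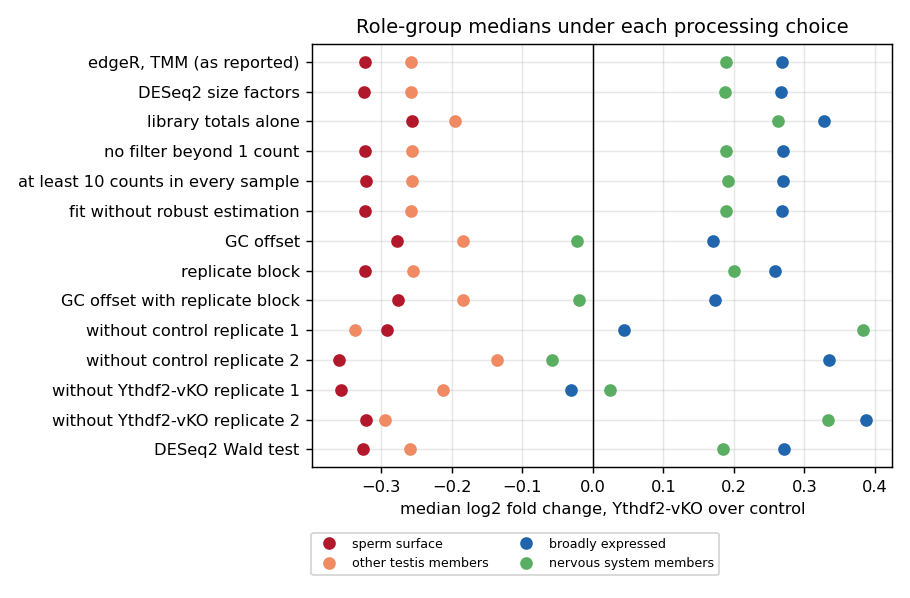
Median log2 fold change (libraries labelled Ythdf2-vKO over control) of each role group in the reported fit and in each of 13 alternatives. The sperm-surface median stays between -0.36 and -0.26 and the other testis median between -0.34 and -0.14, while the broadly expressed and nervous system medians reach -0.03 and -0.06 when 1 library is left out.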

How the data were processed

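Whole-testis RNA was depleted of ribosomal RNA and made into directional libraries, per the labels' protocols. Raw counts for each gene were deposited for the 4 libraries, per the file headers. The same table holds the authors' mean of counts divided by size factors (a signal), a log2 fold change, its standard error, a Wald statistic (a score) and p-values, under DESeq2 column names per the file headers. HISAT2 2.1.0 and HTSeq 0.6.1p1 are named in the submitters' processing notes. Build and strand setting are not given in the sources used here. The deposited log2 fold changes were recomputed with DESeq2 1.42.0 to within 3.7e-08.

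Counts were tested with edgeR 4.0.16 (R 4.3.3): TMM, filterByExpr, robust quasi-likelihood fit of genotype, two-sided F test, Benjamini-Hochberg adjustment over 21132 genes. Standard errors are the absolute log2 fold change over the square root of F. The fit was tested on simulated counts. Depth was 24862518 to 29561182 counts per library, and error estimates rest on 2 libraries per group. Reads carry no molecular identifiers. CPM use TMM library sizes.

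Identifiers were joined to GENCODE M21 (GRCm38), which may differ from the authors' annotation. Zinc-site codons were found by a motif search or, without a match, by MAFFT alignment. Near-identical copies were sought with blastn (at least 300 nt). Members, role groups and lists were chosen with earlier results of these data known. Genes given in full are members with a p under 0.05, the 3 most abundant of each role group, and Adam1a, Adam1b, Adam2, Adam3, Adam9, Adam10 and Adam17. Of each partner list, the 2 genes with the smallest p are given, and of the regulators also Timp3 and Timp4. Alternatives covered scaling, filters, robust estimation, DESeq2, GC content, replicate number and leaving out each library.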

Additional observations from a re-analysis of the deposited data

How the results depend on the processing

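All 13 alternatives were run. Of the 31 members, 23 kept the direction of their log2 fold change under each of them. No member was called with DESeq2 size factors, library totals alone, either other filter, a fit without robust estimation or a GC offset. The replicate block called 3 lower members (Adam3, Adam18, Adam21; 4.81% of all genes were called), the GC offset with replicate block 2 (Adam18, Adam21; 2.46%), and the DESeq2 Wald test 1 (Adam3). Leaving out 1 library called 0 to 7 lower and 0 to 1 higher members, the most without control 1 (7 lower, 1 higher, against 6.82% of all genes) and without control 2 (7 lower, against 4.93%). In these fits the lone library is assumed to vary like the other group. Same-numbered libraries deviated together at a correlation of 0.0933 across 17827 genes, over 2 pairs only, and the labels do not say what the numbers mark, so they were not taken to pair the samples.

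Over all genes, 59 were called higher and 24 lower. The counts were 181 and 37 with library totals alone, 627 and 390 with the replicate block, 243 and 277 with the GC offset and replicate block, and 137 and 80 with the DESeq2 Wald test. The GC offset gave 76 higher and 66 lower, and a fit without robust estimation 50 and 15. Higher genes ranged from 30 to 1048 and lower genes from 5 to 523 when 1 library was left out. The cause was not tested.

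The sperm-surface median was -0.26 with library totals alone, -0.28 with the GC offset and -0.28 with the GC offset and replicate block, and -0.36 to -0.29 without 1 library. The other testis median was -0.34 to -0.14 without 1 library. The broadly expressed median was -0.030 to 0.39 without 1 library, lowest without Ythdf2-vKO 1. The nervous system median was -0.022 with the GC offset, -0.020 with the GC offset and replicate block, and -0.059 to 0.38 without 1 library.

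Direction changed for Adam4 with library totals alone (0.024), the GC offset (0.029) and the GC offset with replicate block (0.027), for Adam29 in the same 3 fits (0.051, 0.083, 0.082), for Adam30 with library totals alone (0.017), and for Adam11 with the GC offset (-0.022) and the GC offset with replicate block (-0.020). Without 1 library the log2 fold change ran from -0.11 to 0.031 for Adam4, -0.10 to 0.078 for Adam29, -0.21 to 0.094 for Adam30, -0.059 to 0.47 for Adam11, -0.21 to 0.050 for Adam34, -0.16 to 0.25 for Adam26b, -0.19 to 0.69 for Adam19 and -0.53 to 0.38 for Adam33.

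Mean shares of ADAM counts were 87.4%, 9.26%, 2.56% and 0.811% for the sperm-surface, other testis, broadly expressed and nervous system groups, and 88.2%, 10.1%, 1.41% and 0.312% when counted per kb. With the longest transcript in place of merged exons, the median level per kb was 3.55 CPM for broadly expressed and 1.40 CPM for nervous system genes. Low counts limit Adam12, Adam19 and Adam33, with 13 to 79 counts per library.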
